A study of Mus musculus with 6 samples.

Results

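The pyruvate dehydrogenase complex turns pyruvate into acetyl-CoA inside mitochondria and so joins glycolysis to the citric acid cycle and to fat synthesis. Its E1 component is phosphorylated and switched off by pyruvate dehydrogenase kinases and switched on again by pyruvate dehydrogenase phosphatases. In liver this switch is known to move with feeding and fasting, and *Pdk4* is known as a kinase gene induced by fasting and by the fatty acid receptor PPAR alpha. The set described here was chosen by gene symbol and holds 10 of the 24421 genes listed in the deposited tables, namely the kinases *Pdk1*, *Pdk2*, *Pdk3* and *Pdk4*, the phosphatases *Pdp1* and *Pdp2*, the E1 subunits *Pdha1* and *Pdhb*, the E2 core *Dlat* and the E3-binding protein gene *Pdhx*.

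Hepatic mRNA was sequenced from 3 wild-type (WT) mice and 3 mice heterozygous for PAI-1 (*Pai-1*+/-), an inhibitor of plasminogen activators. All were C57BL/6 mice in the labels (C57BL/6 J in the methods) on a standard chow diet, with free access to food and 21 weeks old in the labels. The methods describe male mice and a cross of *Pai-1*-/- with WT mice, in which the lost copy is missing from every tissue and not from liver alone, and livers flushed with saline. The study asked how lower PAI-1 changes hepatic expression, but no genotype comparison is given here, because the 6 columns of counts per mouse carry animal numbers that match no sample label. Those columns were left aside for every purpose, differences between genes within a mouse included. The values are the authors' mean normalized count of each gene over all libraries, 1 pooled value with no spread between mice. Differences between members were therefore not set against replicate error here, and no value stands for WT or *Pai-1*+/- liver alone.

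Gene levels summed to 30046000 mean normalized counts, of which the 10 members held 0.0668%. Of all genes listed, 12971 had a mean normalized count above 10 and are the measured genes referred to here. All 5 hepatocyte markers were between 24370 (*Hnf4a*) and 2155550 (*Alb*). Kupffer cell, endothelial and stellate cell markers were also present, with summed mean normalized counts of 5426, 3657 and 5795. The 3 bile duct cell markers summed to 412 and the 3 skeletal muscle markers to 5.31. The Kupffer cell, endothelial and stellate sums cover 4, 4 and 3 markers, with no correction for transcript length. *Dcn* alone held 4160 of the stellate sum, so these sums do not rank the cell types. Of the red cell markers, *Alas2* was at 2136 and the globin genes *Hbb-bt* and *Hba-a1* were listed at 0. Whether globin reads were lost in mapping was not tested, so these zeros do not show that red cell RNA was absent. In whole liver, a level joins all these cells, and fewer cells of a type and less RNA per cell cannot be told apart.

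All 10 members were measured. Without a correction for transcript length, 8 lay above the median measured gene, which had a mean normalized count of 440. Their levels ran from 13.4 for *Pdk3* to 5290 for *Pdha1*. By this count, *Pdk3* and *Pdp1* lay at percentiles 2.81 and 13.4 of the measured genes, and the other 8 at percentile 58.9 (*Pdp2*) or above. Per kilobase (kb) of the longest annotated transcript, 7 members lay above the median of the measured genes with a matched length, 128.9. *Pdp2* was then below it, at 110.7 per kb and percentile 46.3. *Pdk3* and *Pdp1* were at percentiles 6.54 and 10.3 per kb, and the other 7 at percentile 73.8 (*Pdhx*) or above.

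**Figure D1:**
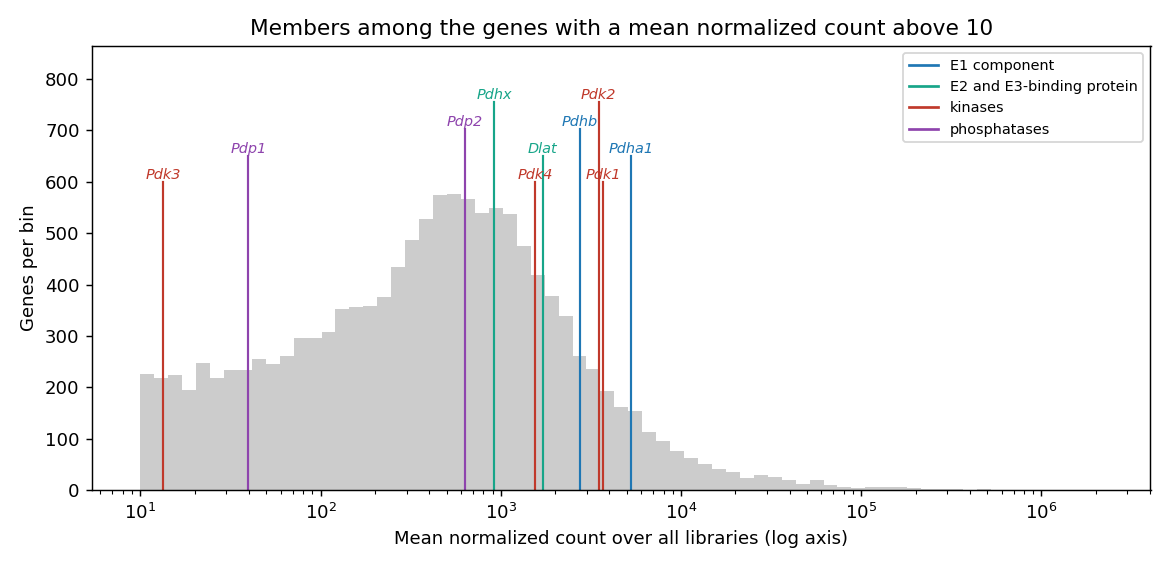
Histogram of the mean normalized count (log axis, pooled over all libraries) of the 12971 measured genes, with a line for each member coloured by role. Most members sit on the upper side of the distribution, between 630 (*Pdp2*) and 5290 (*Pdha1*), while *Pdk3* (13.4) and *Pdp1* (39.8) sit at its lower end. These counts are not corrected for transcript length, and per kb *Pdp2* was below the median.

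Each kinase gene encodes an enzyme with the same target, the E1 component, yet the kinase levels were far apart, and their promoters are shown for this reason. The 4 sequences below are from RefSeq on GRCm38.p6, each with 250 bases before and 50 bases after a transcription start, written 5' to 3' on the gene's strand, with every CG dinucleotide in capitals. They lie at chr2:71872974-71873273 (plus strand) for *Pdk1*, chr11:95041322-95041621 (minus strand) for *Pdk2*, chrX:93832101-93832400 (minus strand) for *Pdk3* and chr6:5496229-5496528 (minus strand) for *Pdk4*. For *Pdk1* and *Pdk2* the table holds a second start, and the one nearest the start of the coding transcript in GENCODE M21 is printed.
Pdk1: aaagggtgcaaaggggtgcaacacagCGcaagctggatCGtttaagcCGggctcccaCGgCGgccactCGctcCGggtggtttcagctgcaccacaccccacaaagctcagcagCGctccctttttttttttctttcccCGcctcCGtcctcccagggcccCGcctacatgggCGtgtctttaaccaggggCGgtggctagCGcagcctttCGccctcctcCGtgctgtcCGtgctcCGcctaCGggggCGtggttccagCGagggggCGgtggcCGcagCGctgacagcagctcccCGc
Pdk2: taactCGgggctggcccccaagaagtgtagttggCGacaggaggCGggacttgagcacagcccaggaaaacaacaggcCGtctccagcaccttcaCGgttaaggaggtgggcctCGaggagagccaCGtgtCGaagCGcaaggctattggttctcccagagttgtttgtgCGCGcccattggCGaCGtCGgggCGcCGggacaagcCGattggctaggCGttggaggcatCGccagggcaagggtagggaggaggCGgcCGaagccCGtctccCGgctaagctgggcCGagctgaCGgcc
Pdk3: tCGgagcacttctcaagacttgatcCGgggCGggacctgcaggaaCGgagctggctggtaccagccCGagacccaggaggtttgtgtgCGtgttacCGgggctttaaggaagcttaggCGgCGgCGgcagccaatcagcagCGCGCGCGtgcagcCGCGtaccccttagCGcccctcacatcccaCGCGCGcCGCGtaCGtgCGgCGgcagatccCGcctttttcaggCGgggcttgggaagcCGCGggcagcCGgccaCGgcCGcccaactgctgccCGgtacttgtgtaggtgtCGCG
Pdk4: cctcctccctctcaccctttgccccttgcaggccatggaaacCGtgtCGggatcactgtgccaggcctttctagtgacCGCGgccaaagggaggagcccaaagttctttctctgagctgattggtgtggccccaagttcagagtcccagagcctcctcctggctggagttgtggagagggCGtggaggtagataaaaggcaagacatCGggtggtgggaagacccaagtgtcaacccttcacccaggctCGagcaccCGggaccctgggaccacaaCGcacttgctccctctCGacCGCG

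The window of *Pdk3*, the kinase gene with the lowest level, held the most CG dinucleotides, 35, against 25 for *Pdk1*, 25 for *Pdk2* and 12 for *Pdk4*. The median over 32851 mouse promoter windows of this length was 7. Across the 9 members with a window in the table (*Pdp1* has none), the other counts were 21 for *Pdha1*, 24 for *Pdhb*, 18 for *Dlat*, 28 for *Pdhx* and 14 for *Pdp2*. These counts are for the window nearest the coding start in each gene, and all 9 were above the median of all windows. The second window of *Pdk1* in the table held 2 and that of *Pdk2* 13. The sequence GGGCGG on either strand, which contains a CG, occurred in the windows of *Pdk1* and *Pdk3*, as in 35.7% of all windows, and in neither of the other kinase windows. CACGTG, a palindrome, which is an E-box and also holds a CG, occurred in *Pdk2* and in *Pdp2* and in 7.15% of all windows. CCAAT on either strand occurred 3 times in *Pdk2* and once each in *Pdk3* and *Pdk4*, and in 37.4% of all windows. The sequences TATAAA and AGGTCA, searched on both strands, were in none of the 4 kinase windows, and occurred in 13.6% and 16.3% of all windows. Such matches describe the letters of the windows only, and binding was not measured.

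Among the kinases, *Pdk1* had the highest mean normalized count, 3711, closely followed by *Pdk2* at 3490. *Pdk1* is known as a target of the hypoxia factor HIF-1, and *Pdk2* as the widely expressed kinase of liver and muscle. *Pdk4* reached 1547 and *Pdk3* 13.4. These counts grow with transcript length, so levels of different genes are compared per kb (1000 bases) of the longest annotated transcript. That length was 5185 bases for *Pdk1* and 2246 for *Pdk2*. Per kb, the order of the leading pair turned, with *Pdk2* at 1554 and *Pdk1* at 716, a ratio of 2.17. *Pdk4* followed at 444 per kb and *Pdk3* at 6.32. *Pdk2* thus held 57.1% of the summed kinase level per kb, *Pdk1* 26.3%, *Pdk4* 16.3% and *Pdk3* 0.232%. With the other definitions of length the share of *Pdk2* was between 51.1% and 57.1%. *Pdk1* and *Pdk2* have 1 coding transcript each, which is also the longest, so the coding lengths could not change their ratio. Without a correction for length *Pdk2* held 39.8%, behind *Pdk1* at 42.4%. The place of *Pdk4* behind *Pdk1* depended on the length used, since its mean coding transcript is shorter than its longest and put it at 763 per kb, or 25.1% of the summed kinase level. *Pdk2* stood 246-fold above *Pdk3* and 3.50-fold above *Pdk4* per kb, the latter 2.04-fold with the mean coding transcript.

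The 4 kinase genes lie apart in the genome. *Pdk1* (ENSMUSG00000006494.11) is at chr2:71873224-71903858, *Pdk2* (ENSMUSG00000038967.13) at chr11:95026258-95041354, *Pdk3* (ENSMUSG00000035232.8) at chrX:93764607-93832201 and *Pdk4* (ENSMUSG00000019577.6) at chr6:5483351-5496309 on GRCm38. Windows of 75 bases, the read length, were taken along the longest coding transcript of each and looked for in the transcripts of all other genes. None was found for *Pdk1*, *Pdk2* or *Pdk3*, so no exact read of these transcripts matched that of another kinase. In *Pdk4*, 21 of 3410 windows, within a stretch of 95 bases, also occurred in transcripts of 6 other genes.

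The phosphatase genes, whose products reverse the kinases' mark on E1, had a lower summed mRNA level than the kinase genes. Amounts and activities of the enzymes were not measured. *Pdp2*, whose product is the phosphatase isoform known from liver and fat, had a mean normalized count of 630. *Pdp1*, whose product is the calcium-stimulated isoform known from muscle, had 39.8. Per kb these were 111 and 9.46, so that *Pdp2* was 11.7-fold higher (7.58-fold with the mean coding transcript) and held 92.1% of the summed phosphatase level. *Pdpr*, the regulatory subunit that partners PDP1, was at 8.55 per kb, near *Pdp1*. The summed level per kb of the 4 kinase genes was 2720 and that of both phosphatase genes 120, a ratio of 22.6. This ratio ranged from 16.96 to 24.3 over the definitions of length and was 13.1 without a correction for length. The length of *Pdp2*, 5692 bases, is the same under every definition, so the range reflects the lengths of the other genes only. *Pdp1* (ENSMUSG00000049225.14) lies at chr4:11958184-11966452 and *Pdp2* (ENSMUSG00000048371.8) at chr8:104591451-104599026, and neither shared a 75-base window with another gene.

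**Figure D2:**
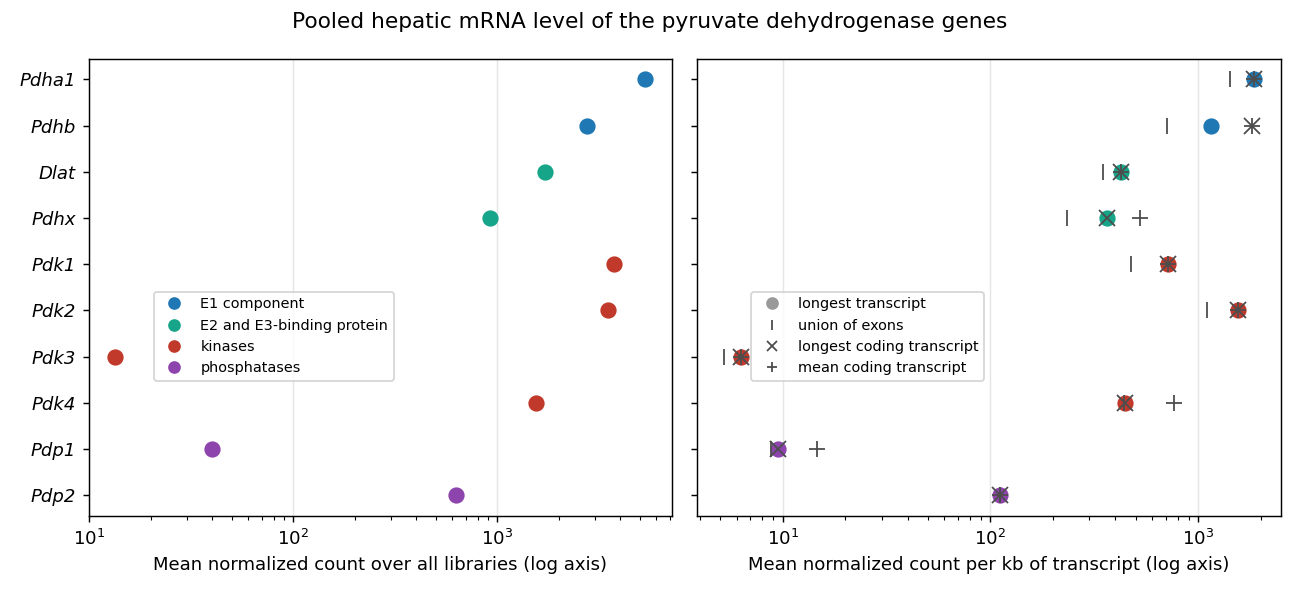
Pooled level of each member as the mean normalized count (left, log axis) and per kb of transcript (right, log axis), coloured by role, with grey marks for the other definitions of transcript length. *Pdk1* (3711) is to the right of *Pdk2* (3490) on the left, but *Pdk2* (1554 per kb) is to the right of *Pdk1* (716 per kb) on the right, and *Pdk3* and *Pdp1* stand far below the rest in both.

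The E1 component, the substrate of the switch, joins 2 alpha and 2 beta subunits. *Pdha1*, which encodes the alpha subunit that carries the phosphorylation sites, had the highest level of all members, with a mean normalized count of 5290 and 1858 per kb. *Pdhb*, which encodes the beta subunit, had 2737 and 1151 per kb. The longest annotated transcript of *Pdhb*, 2377 bases, is one with a retained intron. With its coding transcript of 1513 bases its level was 1809 per kb, and the ratio of *Pdha1* to *Pdhb* fell from 1.61 to 1.03. *Pdha2*, the alpha subunit gene of the testis, had a mean normalized count of 0.827 and was not among the measured genes.

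Both E1 genes share sequence with other transcripts. *Pdha1* (ENSMUSG00000031299.10, chrX:160122209-160138413) has 603 exonic bases in common with *Map3k15* on the other strand, and 13.9% of its 75-base windows also occur there. *Map3k15* had a mean normalized count of 79.2, and the strand setting is not given in the sources used here, so reads of this stretch could have been mixed. *Pdhb* (ENSMUSG00000021748.9, chr14:8165996-8173025) shared 19.9% of its windows with the transcript of *Gm6123*, in stretches of at most 171 bases. Reads from these windows could have been lost, which makes the level of *Pdhb* uncertain, and the size of this was not tested. *Gm6123* is not among the genes listed, so it has no level here.

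*Dlat*, which encodes the acetyltransferase that builds the core of the complex, had a mean normalized count of 1708 and 423 per kb. *Pdhx*, which encodes the protein that ties the E3 enzyme to this core, had 917 and 366 per kb. The pair was thus at similar levels per kb, with a ratio of 1.16, and *Pdhx* was the higher of them with the mean coding transcript as length. Against *Dlat*, *Pdha1* was 4.39-fold higher per kb. *Dld*, the E3 enzyme shared with other complexes, was at 1965 per kb, 4.64-fold above *Dlat*. *Dlat* (ENSMUSG00000000168.9) lies at chr9:50634633-50659780 and *Pdhx* (ENSMUSG00000010914.10) at chr2:103021075-103073513. Neither shared a 75-base window with another gene.

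In the order of levels per kb, *Pdha1* led, followed by *Pdk2*, *Pdhb*, *Pdk1*, *Pdk4*, *Dlat*, *Pdhx*, *Pdp2*, *Pdp1* and *Pdk3*. The neighbours *Pdk4* and *Dlat* were at 444 and 423 per kb. As no values per mouse were used, no neighbours in this order were tested for a difference beyond their spread. The summed kinase level was 1.46 times that of *Pdha1*, with a range of 1.43 to 1.64 over the definitions of length.

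The 2-oxoglutarate and branched-chain 2-oxoacid dehydrogenase complexes are built on the same plan as the pyruvate dehydrogenase complex and share its E3 enzyme, and the branched-chain complex also has a kinase and a phosphatase of its own. *Dlat* was the lowest of the E2 genes per kb, since *Dlst*, the E2 gene of the 2-oxoglutarate complex, was at 2689 (906 with the union of exons) and *Dbt*, that of the branched-chain complex, at 1066. *Pdha1* was at 0.465 times the level of *Bckdha*, its branched-chain counterpart, which was at 3994 per kb. For E1 of the 2-oxoglutarate complex, *Ogdh* was at 2163 per kb, 1.16 times *Pdha1*, with a range of 1.15 to 1.62 over the definitions of length.

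The summed kinase and phosphatase genes of the pyruvate complex and those of the branched-chain complex stood in opposite order. Taken alone, *Pdk3*, at 6.32 per kb, was below both *Pdp2* and *Pdp1*. The branched-chain kinase gene *Bckdk* was at 134 per kb and the phosphatase gene *Ppm1k* at 824, so the phosphatase was 6.15-fold higher. *Pdk2* was 11.6-fold above *Bckdk*, whereas *Pdp2* was at a lower level than *Ppm1k*, by 7.45-fold. With the mean coding transcript as length these folds were 5.24 and 13.4. The phosphatase of the branched-chain complex exceeded its kinase by 4.98 to 6.17 times over the definitions of length and by 10.05 times without a correction for length, and the summed kinases of the pyruvate complex exceeded its phosphatases under each of these settings. These are ratios of 1 pooled value to another, with no test.

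**Figure D3:**
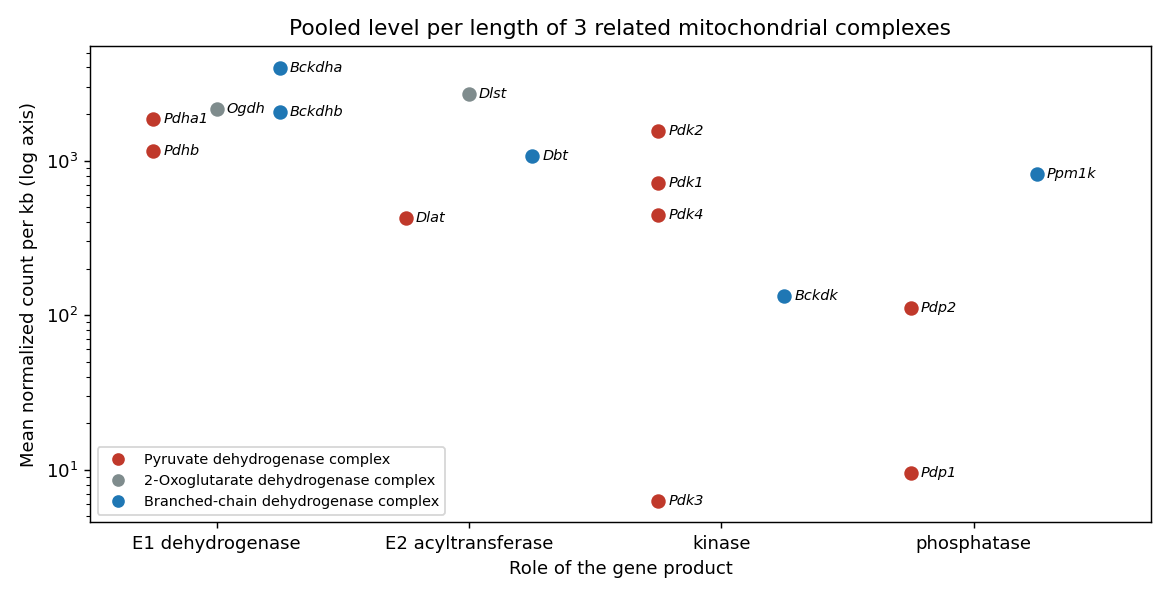
Mean normalized count per kb (log axis) of single genes, grouped by role and coloured by complex. In the pyruvate dehydrogenase complex *Pdk2* (1554), *Pdk1* (716) and *Pdk4* (444) are above *Pdp2* (111), but *Pdk3* (6.32) is below both *Pdp2* and *Pdp1* (9.46). In the branched-chain complex *Ppm1k* (824) is above *Bckdk* (134).

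Genes that bring pyruvate to the complex or use it elsewhere spanned a wide range of levels. All 9 genes of this list were measured, from *Ldhb* at 35.5 per kb to *Ldha* at 16386. *Ldha*, which interconverts pyruvate and lactate, was thus the highest of the list. *Pcx*, pyruvate carboxylase, which directs pyruvate to glucose synthesis, was at 5798 per kb, above every member. The mitochondrial pyruvate carrier genes *Mpc1* and *Mpc2* were at 1603 and 1237 per kb, between *Pdha1* and *Pdk1*. The longest transcript of *Mpc2* is not a coding one, and with its coding transcript of 1025 bases it was at 4847 per kb, above *Pdha1*. *Mpc1* was also above *Pdha1* with the mean coding transcript, at 2115 per kb. The 4 further genes listed for the supply of the lipoyl group on the E2 core were all measured. They ran from 48.3 per kb (*Lipt2*) to 370 per kb (*Nfu1*). With the union of exons *Lias* was the highest of them, at 212 per kb against 192 for *Nfu1*. The longest transcript of *Nfu1* is not a coding one. With its longest coding transcript, 1195 bases, *Nfu1* was at 776 per kb, and with the mean coding transcript at 959.

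All 7 genes listed for factors known to act on kinase gene transcription were measured. *Ppara*, which encodes PPAR alpha, was the highest, at 2858 per kb, and *Ppard* and *Ppargc1a* were the lowest, at 61.1 and 61.3 per kb, an order that turned with either coding length. *Foxo1*, another factor known to act on *Pdk4* in fasting, was at 217 per kb, and *Hif1a*, known to act on *Pdk1*, at 353 per kb. These levels describe messenger RNA only.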

How the data were processed

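Libraries of hepatic mRNA from 3 WT and 3 *Pai-1*+/- mice were sequenced by the authors as 75-base single-end reads, aligned to mm10 with STAR and compared with DESeq2 in the RNA Express BaseSpace application. The submitters' processing notes also name HOMER. Versions, annotation and strand setting are not given in the sources used here. The signal used is the mean normalized count in the authors' deposited table, which averages the size-factor-scaled counts of every library. The deposited fold changes, standard errors, test statistics and p-values are the authors' own comparison and were not used. The 6 columns of counts per animal were not used, because their names match no sample label. The planned edgeR and DESeq2 fits, their alternatives and totals per library were therefore not run, and no interval is given, since the counts behind each mean were left aside with those columns.

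Genes with a mean normalized count above 10 were called measured. Lengths, exons and coordinates were taken from GENCODE M21 (GRCm38, which is mm10), where 96.4% of the measured genes matched 1 gene by symbol. Levels per kb used the longest transcript. Alternatives were the union of exons, the mean coding transcript and no length, and, chosen after the data were seen, the longest coding transcript. Windows of 75 bases were matched exactly on both strands. The percentile, the union of exons and the window matching were tested on simulated data, and the other steps were not. Python 3.11.15, pandas 2.3.3, NumPy 2.4.6 and Matplotlib 3.10.9 were used. Members, lists and motifs were chosen with earlier results of these data known, and genes were named where they are members, the highest or lowest of a list, or of the same role as a member. *Map3k15*, *Gm6123* and the further genes of the pyruvate and transcription factor lists were named after their values were seen. Some planned values are not reported here.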

Additional observations from a re-analysis of the deposited data

How the results depend on the processing

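The order of the 10 levels per kb was the same with the union of exons as length. It changed place for 6 members with the mean coding transcript, for 5 without a correction for length and for 2 with the longest coding transcript. Turned round were the log2 ratio of *Pdk2* to *Pdk1* (1.12 per kb, -0.089 without length), *Pdk4* to *Dlat* (0.07 per kb, -0.14 without length), *Dlat* to *Pdhx* (0.21 per kb, -0.31 with the mean coding transcript), *Pdk1* to *Pdk4* (0.69 per kb, -0.092 with the mean coding transcript) and *Pdhb* to *Pdk2* (-0.43 per kb, 0.22 with the mean or the longest coding transcript). *Pdhb* and *Pdk1* also changed order, at 1151 and 716 per kb but 2737 and 3711 without length. These changes come from the lengths alone. No paired analysis was possible because the columns of counts carry no replicate number and no sample name, and fits that leave out a mouse, other normalizations and other filters of counts were not run because those columns were not used. Pooled values give no precision, and low ones, such as 13.4 for *Pdk3*, rest on few reads per library.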
